A study of Mus musculus with 55 samples.

Results

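The cGAS-STING pathway reads out DNA in the cytosol, and 9 of its genes were followed here through the early blood cell hierarchy of the mouse bone marrow. They were taken by symbol from a table of read counts that holds 55421 genes, where each had 1 row: Cgas, Ddx41, Tmem173 (the gene of STING), Tbk1, Ikbke, Irf3, Trex1, Samhd1 and Rnaseh2b. The table has 46 bulk RNA-seq libraries of 6 sorted populations, namely LT-HSC, ST-HSC, CMP, GMP, MEP and CLP, with 4 WT and 4 Tet2-/- libraries in each except for 3 WT libraries in LT-HSC and in ST-HSC. A second table of 9 LT-HSC libraries, 3 each labelled WT, Sting-/- and Tet2-/- Sting-/-, was used as support.

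All mice were on a C57BL/6 background. Tet2 was removed with a floxed allele and Mx1-Cre, which is driven by an interferon-responsive promoter and was switched on with 5 doses of poly(I:C) in mice aged 4 weeks. For the first table, marrow was taken 16 weeks after induction, and for the second the time is not given in the sources used here. The Sting-/- allele is present from the germline. Whether the WT mice received poly(I:C) as well is not given in the sources used here. Each library was made from 200 sorted cells according to the labels, while the methods of the study name a larger number per group. The labels do not say whether libraries of one number came from one mouse, so that p-values measure only the spread between these libraries.

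cGAS binds DNA in the cytosol and makes the messenger cGAMP, which activates the membrane adaptor STING. STING brings in the kinase TBK1, helped by its relative IKK-epsilon, and TBK1 phosphorylates the transcription factor IRF3, which turns on the genes of type I interferon. TREX1, SAMHD1 and RNase H2 act on the other side of the balance, since they degrade DNA, its nucleotide precursors or RNA in DNA hybrids, and their loss in humans causes an interferon disease.

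The promoters of 7 of the 9 genes were in the RefSeq table of the GRCm38.p6 assembly. Tmem173 and Rnaseh2b had no entry. The 4 shown belong to the genes with an entry whose level differed among the WT populations in the test given later, and they cover the 250 bases before the start that RefSeq gives, in the 5′ to 3′ direction of the gene, with each CG dinucleotide in capitals. In the Ddx41 sequence TTATCT is in capitals too, the reverse complement of AGATAA.
Samhd1: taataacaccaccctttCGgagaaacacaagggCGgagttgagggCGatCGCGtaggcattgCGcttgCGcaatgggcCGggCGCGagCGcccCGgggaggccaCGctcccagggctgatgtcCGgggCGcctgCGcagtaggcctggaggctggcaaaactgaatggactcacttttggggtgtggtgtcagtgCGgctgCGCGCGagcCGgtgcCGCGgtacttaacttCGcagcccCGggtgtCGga
Irf3: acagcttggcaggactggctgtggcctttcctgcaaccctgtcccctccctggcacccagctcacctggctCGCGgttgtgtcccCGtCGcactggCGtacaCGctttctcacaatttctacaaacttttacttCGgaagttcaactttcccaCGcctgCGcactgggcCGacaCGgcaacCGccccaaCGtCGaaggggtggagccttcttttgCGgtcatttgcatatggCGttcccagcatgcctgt
Ikbke: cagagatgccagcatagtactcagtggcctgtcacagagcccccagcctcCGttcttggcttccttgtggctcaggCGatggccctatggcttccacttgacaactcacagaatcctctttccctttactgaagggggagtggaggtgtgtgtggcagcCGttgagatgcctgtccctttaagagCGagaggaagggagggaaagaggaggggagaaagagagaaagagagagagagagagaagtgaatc
Ddx41: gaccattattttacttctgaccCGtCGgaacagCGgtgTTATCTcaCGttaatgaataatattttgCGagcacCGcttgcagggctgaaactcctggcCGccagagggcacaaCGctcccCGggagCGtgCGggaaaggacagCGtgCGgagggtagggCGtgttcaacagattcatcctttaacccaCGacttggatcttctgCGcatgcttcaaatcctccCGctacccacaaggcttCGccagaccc
The windows lie at chr2:157135097-157135346 on the minus strand for Samhd1, chr7:44997398-44997647 on the plus strand for Irf3, chr1:131279564-131279813 on the minus strand for Ikbke and chr13:55536659-55536908 on the minus strand for Ddx41. The GENCODE genes used for the counts begin elsewhere in some cases, so that 169 bases of the Samhd1 window and 43 of the Ikbke window lie inside the gene, and 0 of the windows of Irf3 and Ddx41. Samhd1 had 26 CG dinucleotides, Ddx41 18 and Irf3 16, against a median of 6 over 32851 promoters, and Ikbke had 4. Over the window from 250 bases before to 50 after the start, 5 motifs were searched on both strands. The ISRE core, which interferon-responsive factors bind, was in 3.44% of all promoters and in 0 of the 7. The AGATAA motif of GATA factors was in 11.2% of all and in Ddx41 among the 7, starting at position -212 from the gene's start on the minus strand. GAGGAAGT, an ETS motif, was in 3.2% of all and in Trex1 among the 7, in a window that lies inside the GENCODE gene. Both forms of the NF-kB motif searched, in 0.155% and 0.0883% of all, were in none of the 7.

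Depth ran from 50458473 to 102148079 counts per library in the first table and from 26775681 to 78680486 in the second. Levels are given as CPM (a gene's share of the library's counts, scaled up to a common total), scaled with TMM factors over the libraries of a table, mean ± SD. A gene was called when edgeR gave an adjusted p below 0.05 and a change of at least 2-fold. Markers of the gates did not all separate the populations. The 7 LT-HSC genes summed to 412 to 678 CPM in WT LT-HSC and to 411 to 448 in WT ST-HSC, against at most 345 elsewhere in WT. Single genes did separate LT-HSC from ST-HSC. Slamf1, a gene of the sorting gate, had WT means of 50.7 CPM in LT-HSC and 0.531 in ST-HSC, and Flt3 had 4.94 and 96.5. Of the 7 genes only Hlf had the higher WT mean in ST-HSC, 186 against 69.9 CPM. MEP and GMP stood out by their own markers, with a summed level of 13000 to 14700 CPM for MEP genes in WT MEP against at most 1510 in the other WT populations, and of 30500 to 40700 CPM for the genes of CMP and GMP in WT GMP. The count of Tet2 itself does not separate the genotypes, since its mean in the libraries labelled Tet2-/- was above WT in LT-HSC (23.9 ± 12.7 against 13.2 ± 1.77 CPM), GMP and CLP, and below it in CMP (16.2 ± 8.21 against 20.7 ± 3.04), ST-HSC and MEP. Counts are summed over the whole gene, exons outside the floxed part included, so they check little. Trex1 lies with 100% of its exon bases inside exons of Atrip on the same strand, so its counts are uncertain, and 17.4% of the exon bases of Ddx41 are shared with the antisense gene Gm46416.

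The CLP libraries stood apart. Igkc, Ighm and Jchain, genes of antibody-secreting cells, took 17.3% to 31.7% of all counts in the 4 WT CLP libraries and 0.0721%, 7.6%, 21.2% and 24.3% in the Tet2-/- ones, against at most 0.0218% in the 38 libraries of the other populations. A list of 8 plasma cell genes, written after these libraries were seen, summed to 100000 to 368000 CPM in WT CLP and to 282 to 201000 in Tet2-/- CLP. B cell markers summed to 567 to 1270 CPM in WT CLP and 99.7 to 669 in Tet2-/- CLP, and plasmacytoid dendritic cell markers to 207 to 428 and 74.6 to 127. Other lists had the higher median in Tet2-/- CLP, with the 6 genes of CMP and GMP at 93.7 to 11500 CPM (median 3140) against 5.06 to 2880 (690) in WT CLP, 7 macrophage and monocyte markers at 5.96 to 202 (157) against 0.126 to 216 (7.17), and 5 T and NK cell markers at 416 to 2170 (511) against 207 to 795 (369). Of the genes that define CLP, Il7r was at 371 to 650 CPM in WT CLP, Rag1 was at 0 in all 4, and Flt3 was at 0 in replicate 4. In Tet2-/- CLP Il7r was at 231 to 1120 CPM, Rag1 at 9.38, 2.2, 0.0594 and 19.3, and Dntt, the terminal transferase gene, had a mean of 803 CPM against 364 in WT. The 5 CLP genes summed to 2220 to 132000 CPM in Tet2-/- CLP and to 146000 to 279000 in WT, without overlap, and most of that sum is Ighm, with means of 74500 and 215000. Detection was also uneven, since of 2917 genes at 20 CPM or more in every library of the other populations 1.3% had at most 3 counts in Tet2-/- replicate 2 and 1.17% in WT replicate 4. Their part in the CLP results was not tested, and each result that rests on CLP is given with this in view. In bulk libraries fewer cells of a type and less RNA per cell cannot be told apart.

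Levels of the 9 genes in WT populations give the baseline. In a test for any difference among the 6 populations, 6 of the 9 passed on adjusted p, against 44.6% of the 20006 genes tested, and 7 of 9 passed when the CLP libraries were left out, against 50.7% of 19528 genes. Tmem173 had the widest range, 61.9-fold between the highest and the lowest population mean, followed by Ikbke with 14.7, Samhd1 with 5.55 and Rnaseh2b with 4.42. Tbk1 was the flattest, with 2.22. This order rests in part on CLP, since without it Tmem173 had 24.5 and Ikbke 12.3, followed by Cgas with 3.07, Ddx41 with 2.94, Trex1 with 2.69, Samhd1 with 2.54, Irf3 with 2.17, Rnaseh2b with 1.76 and Tbk1 with 1.62. Cgas, Tbk1 and Trex1 did not pass the test, at adjusted p of 0.118, 0.161 and 0.115, and without CLP Tbk1 passed at 0.0371. Tbk1 passed at 0.0345 without WT replicate 2 as well, and Cgas at 0.0325 with library totals.

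**Figure D1:**
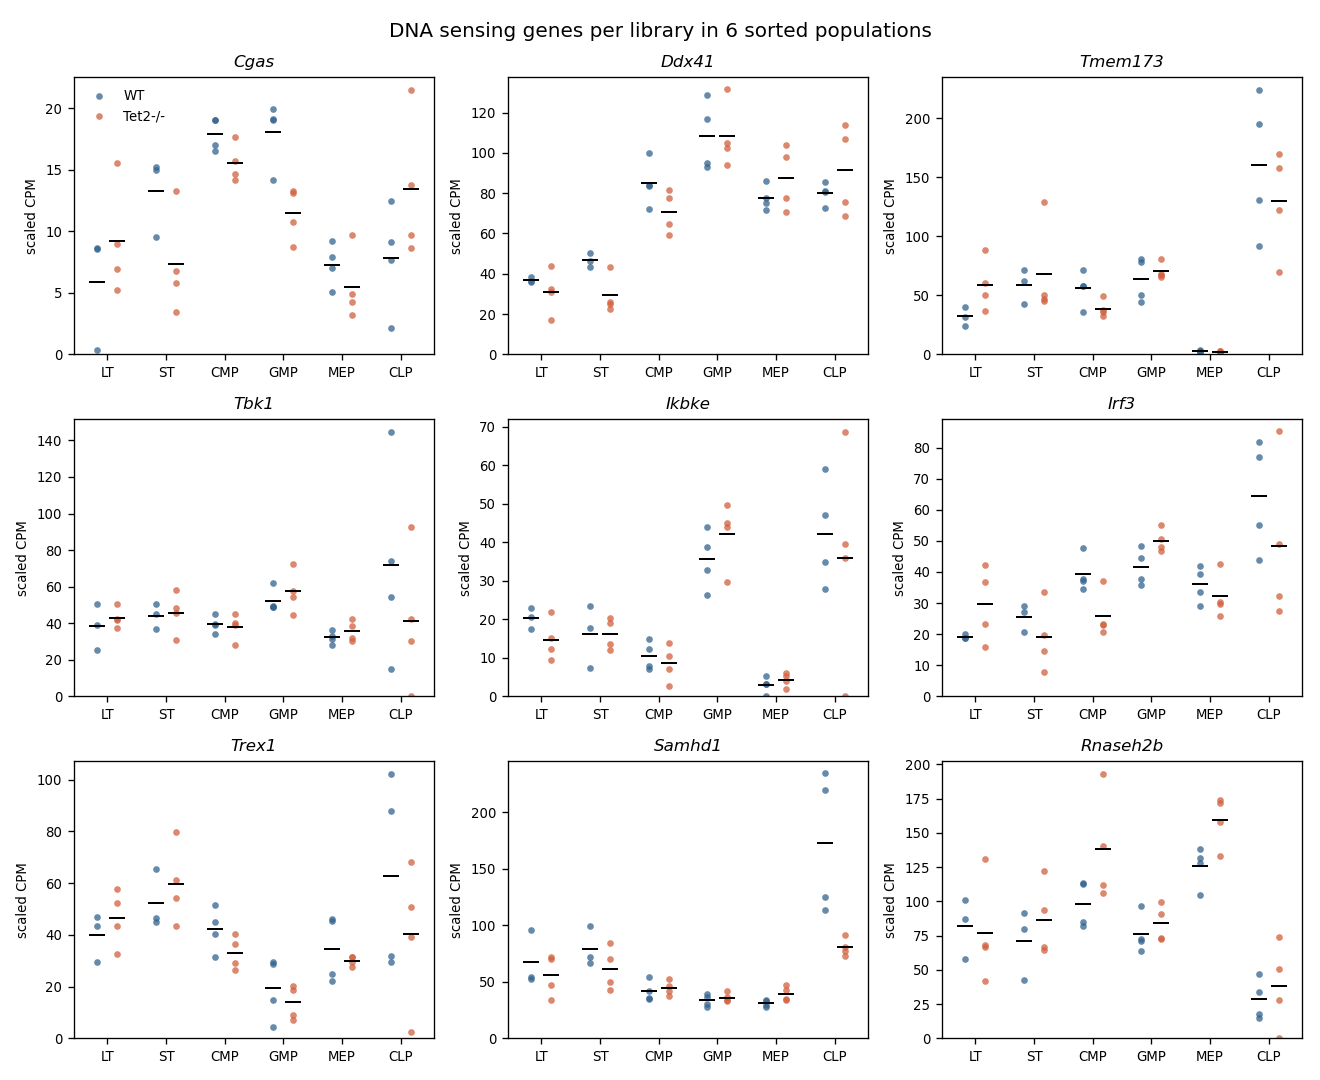
Level of each gene in scaled CPM (vertical axis, starting at 0, its own scale in each panel) in the 6 populations, with 1 point per library, WT in blue, Tet2-/- in orange, and a bar at the group mean. Tmem173 lies under 4 CPM in all MEP libraries, Samhd1 is highest in WT CLP, and the points of both genotypes mix in most panels.

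Cgas (chr9:78430526-78443237 on mm10) encodes the DNA sensor cGAS. Its level was low in WT LT-HSC, with libraries at 8.66, 0.354 and 8.61 CPM, and 15.2, 9.55 and 15 in ST-HSC. It stood at 19.0, 19.1, 17.1 and 16.6 CPM in CMP and at 19.1, 19.0, 20 and 14.1 in GMP, while MEP had 9.18, 7.9, 7.02 and 5.04 and CLP 7.67, 2.17, 12.5 and 9.14. All CMP libraries were above all MEP libraries, yet none of the 15 pairs of populations passed on adjusted p in the fit of all WT libraries, and 1 LT-HSC library was nearly without the transcript. Between neighbours in the order GMP, CMP, ST-HSC, CLP, MEP, LT-HSC the adjusted p was at least 0.408.

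Ddx41 (chr13:55530410-55536658), a DEAD-box helicase that was described as a DNA sensor and that also acts in splicing, separated the stem cells from the progenitors. Its WT libraries held 35.9, 36.4 and 38.2 CPM in LT-HSC and 46.2, 50.3 and 43.5 in ST-HSC. CMP held 72.0, 83.7, 99.8 and 84.0, GMP 95.0, 117, 93.0 and 128, MEP 77.5, 71.4, 86.1 and 74.9, and CLP 80.8, 80.6, 72.8 and 85.8. Every library of the committed progenitors was above every HSC library. In its order, only MEP against ST-HSC passed between neighbours, with a log2 fold change of 0.68 ± 0.16 (SE) and an adjusted p of 0.00477.

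Tmem173 (chr18:35733679-35740554) encodes STING and had the most uneven profile. WT LT-HSC libraries were at 24.3, 31.8 and 40.2 CPM and ST-HSC at 42.4, 62.5 and 71.8. CMP had 36.1, 71.4, 58.0 and 58.1 CPM and GMP 78.3, 44.6, 50.4 and 80.9. MEP libraries were at 1.68, 3.37, 3.0 and 2.3 CPM, and CLP at 224, 91.7, 131 and 195. MEP lay below and CLP above every library of the other WT populations. Of the 15 pairs 10 were called, and in the order CLP, GMP, ST-HSC, CMP, LT-HSC, MEP no neighbours from GMP down to LT-HSC passed on adjusted p. Further apart in this order, GMP was called above LT-HSC, 1.03 ± 0.34 at 0.0393, and the libraries of GMP and of ST-HSC lay above all of LT-HSC.

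TBK1 and IKK-epsilon are the kinases next in line. Tbk1 (chr10:121546455-121586787) kept within 25.5 to 61.9 CPM in the WT libraries of LT-HSC, ST-HSC, CMP, GMP and MEP, and spread from 15 to 144 in CLP. Ikbke (chr1:131254343-131279606) had libraries at 3.2, 0, 5.19 and 3.13 CPM in WT MEP, 7.06, 12.4, 14.8 and 7.78 in CMP and 26.3, 38.9, 32.9 and 44.1 in GMP. The 3 populations do not overlap in Ikbke. LT-HSC, at 20.4 ± 2.71 CPM (n = 3), ST-HSC, at 16.2 ± 8.14 (n = 3), and CLP, at 42.2 ± 13.8 (n = 4), lay above MEP as well, and 3 of 15 pairs were called for Ikbke and 1 for Tbk1. No neighbours in the order of either gene passed on adjusted p, although the Ikbke libraries of CMP and MEP do not overlap, nor do those of GMP and LT-HSC.

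Irf3 (chr7:44997648-45002848) encodes the transcription factor that TBK1 activates. Its WT libraries were at 18.7, 18.7 and 20.1 CPM in LT-HSC and at 20.6, 27.1 and 29.2 in ST-HSC. They reached 34.6, 37.8, 37.1 and 47.8 in CMP, 44.6, 35.6, 37.9 and 48.4 in GMP, 33.7, 29.1, 39.2 and 42.1 in MEP, and 81.8, 43.7, 76.8 and 55.0 in CLP. LT-HSC lay below every other WT library, and CLP overlapped only with the upper ends of CMP and GMP. Of the 15 pairs 8 passed on adjusted p and 4 were called, none of them between neighbours.

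The nucleic acid clearing genes went different ways. Trex1 (chr9:109057933-109059734), the exonuclease gene, ran from 4.34 to 29.7 CPM in WT GMP and from 22.1 to 102.1 elsewhere, with 1 of 15 pairs called. Samhd1 (chr2:157097533-157135265), which encodes a dNTP hydrolase, was at 54.5, 95.5 and 52.3 CPM in LT-HSC and 66.6, 99.1 and 72.3 in ST-HSC. It was lower in CMP, at 34.7 to 54.4 CPM, in GMP, at 27.4 to 39.4, and in MEP, at 27.8 to 34.3, and CLP had 114, 235, 220 and 125. For Samhd1 10 pairs passed on adjusted p and 8 were called. Rnaseh2b (chr14:62292589-62372992), a subunit of RNase H2, was at 17.9, 15.2, 33.9 and 46.6 CPM in CLP and at 105 to 138 in MEP, and the 5 pairs called for it all had CLP on one side.

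Compared per length of exon, a scale for levels between genes, Trex1, whose counts are uncertain, came first in LT-HSC, ST-HSC, CMP and MEP. The length joins all annotated exons of a gene, from 1147 bases for Trex1 to 9150 for Samhd1. The ranks depend on it, and which transcripts were present was not examined. In LT-HSC Trex1 had 34.8 CPM per kb, Ddx41 13.7, Rnaseh2b 13.2, Tmem173 11.7 and Cgas 1.42, the lowest of the 9. In GMP the order began with Ddx41 at 40.3 CPM per kb and Tmem173 at 23.2, and Samhd1 was last at 3.67. MEP had Trex1 at 30.2, Ddx41 at 28.8 and Rnaseh2b at 20.1 CPM per kb, but Tmem173 at 0.944 and Ikbke at 0.319. In CLP Tmem173 came first with 58.5 CPM per kb and Cgas last with 1.91. The sensor Cgas thus ranked 9 of 9 in LT-HSC and CLP and 7 of 9 in GMP and MEP.

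The steps of the hierarchy were then tested in one fit of the 22 WT libraries and, apart from it, in one fit of the 24 Tet2-/- libraries. From LT-HSC to ST-HSC 0 of the 9 genes were called in WT, where 0.175% of 20006 genes were, and 0 in Tet2-/-, where 0.118% of 19415 were. At an unadjusted p under 0.05 the counts were 2 and 0, against 8.85% and 8.57% of genes. WT libraries of the 2 populations did not overlap for 4 of the 9, Cgas, Tmem173, Irf3 and Ddx41, each higher in ST-HSC, as for 13.7% of genes. The largest WT difference at this step was Cgas, 1.19 ± 0.72 on the log2 scale with an adjusted p of 0.715. Tmem173 had 0.90 ± 0.36 in WT and 0.22 ± 0.35 in Tet2-/-, and neither was called.

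From ST-HSC to CMP 0 of 9 were called in WT, against 5.0% of genes. Ddx41 passed on adjusted p alone, 0.86 ± 0.16 at 0.00201, as did Samhd1, which was lower in CMP by a log2 difference of -0.93 ± 0.27 at 0.0488, so that 2 of 9 passed against 6.31% of genes. Libraries did not overlap for 4 of 9 (27.9% of genes), these genes and Cgas and Irf3. In Tet2-/- 1 gene was called, against 3.33% of genes: Ddx41 rose by 1.26 ± 0.27 with an adjusted p of 0.0106, from 26.0, 25.1, 22.4 and 43.3 CPM in ST-HSC to 59.0, 64.8, 81.5 and 77.4 in CMP. Tet2-/- libraries did not overlap for 3 of 9 at this step, Ddx41, Cgas and Trex1, against 19.5% of genes. Cgas differed by 1.06 ± 0.47 (adjusted p 0.216) and Trex1 by -0.87 ± 0.53 (0.422). Without Tet2-/- replicate 3 the difference of Ddx41 was 1.26 ± 0.35 (adjusted p 0.121) and without replicate 4 it was 1.06 ± 0.33 (0.154), so that neither was called, and the share of all genes called was 0.376% and 0.677% there.

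From ST-HSC to CLP 4 of 9 were called in WT, where 24.5% of all genes were. Irf3 rose by 1.30 ± 0.24 (adjusted p 0.000425), Tmem173 by 1.42 ± 0.35 (0.00442) and Samhd1 by 1.11 ± 0.28 (0.00619), while Rnaseh2b fell by 1.35 on the log2 scale, with an SE of 0.33 (0.00438). Ddx41, at 0.76 ± 0.16, passed on adjusted p alone, which 28.1% of genes did. CLP and ST-HSC libraries did not overlap for Tmem173, Irf3, Samhd1, Ddx41 and Ikbke, against 27.0% of genes, and they did for Rnaseh2b. In Tet2-/- 2 were called, against 20.1% of genes, namely Irf3, 1.34 ± 0.41, and Ddx41, 1.62 ± 0.27. Ddx41 kept its call under each alternative tried, whereas Irf3 lost it with library totals (adjusted p 0.0593), with only the 2 populations fitted (0.211), with the replicate block (0.0519) and without replicate 2, 3 or 4 (0.0638, 0.138 and 0.2). Tet2-/- Tmem173 had 0.92 ± 0.36 at 0.0653 and was called under 3 alternatives, one of them without replicate 5, Rnaseh2b -1.20 ± 0.74 at 0.25 and Samhd1 0.36 ± 0.25 at 0.3.

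These CLP differences moved with the scaling. In an alternative chosen after seeing the data, the median log2 difference of all genes at the WT step was -0.10 with TMM and -0.90 when library totals alone were used. On the latter scale Tmem173 stood at 0.67, Irf3 at 0.51 and Samhd1 at 0.24, none of them called, with 1 of 9 called in all, against 33.4% of genes. A change of scaling shifts all genes nearly alike, so that their place above that median is no separate check. Without WT replicate 2, 2 of 9 were called, against 17.6% of genes, and Tmem173 had 1.03 at an adjusted p of 0.054 and Rnaseh2b -1.09 at 0.0938. Without WT replicate 4 Samhd1 stood at 0.98, just under 2-fold.

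**Figure D2:**
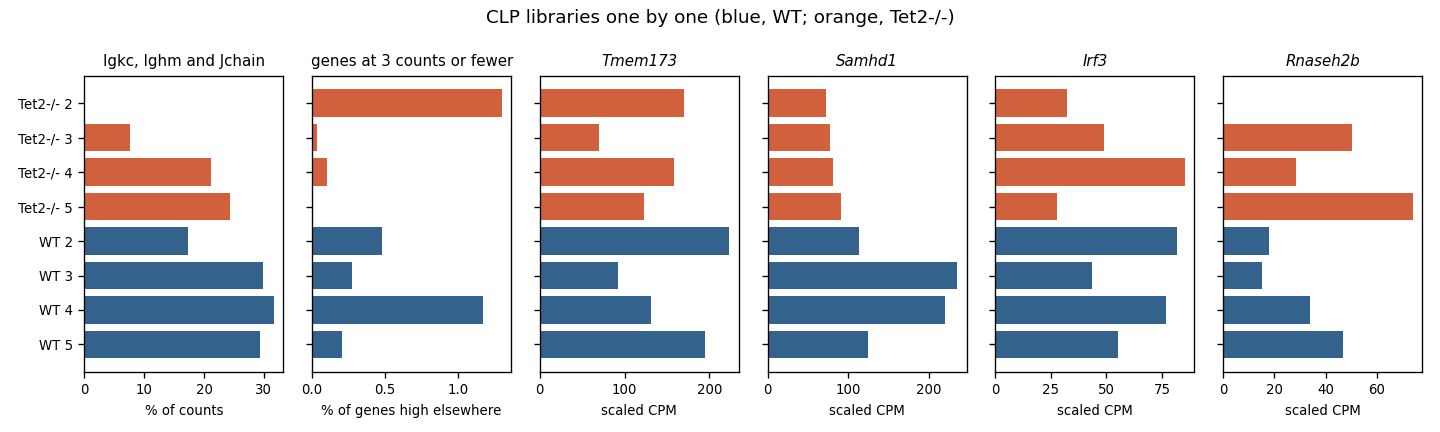
Each of the 8 CLP libraries in 6 panels (horizontal axes start at 0): the percent of counts from Igkc, Ighm and Jchain, the percent of the 2917 genes high in all other populations that have at most 3 counts, and the scaled CPM of Tmem173, Samhd1, Irf3 and Rnaseh2b, WT in blue and Tet2-/- in orange. The 4 WT libraries hold 17.3% to 31.7% antibody transcripts, and Tet2-/- replicate 2 holds 0.0721% and has Rnaseh2b at 0.17 CPM.

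From CMP to GMP 0 of 9 were called in WT, against 3.15% of genes, and 0 in Tet2-/-, against 3.08%, with 3 and 5 at an unadjusted p under 0.05, against 16.9% and 18.0% of genes. Ikbke had 1.78 ± 0.82 in WT and 2.37 ± 1.0 in Tet2-/-, at adjusted p of 0.272 and 0.205, and Trex1 -1.09 ± 0.49 and -1.18 ± 0.54. GMP and CMP libraries did not overlap for 3 of 9 genes in WT, Ikbke, Trex1 and Tbk1, against 25.6% of genes. In Tet2-/- they did not for 7 of 9, all but Tbk1 and Samhd1, against 31.6%. Among these Tmem173 differed by 0.93 ± 0.36 in Tet2-/- (adjusted p 0.156) and 0.21 ± 0.31 in WT, and Irf3 by 1.01 ± 0.40 (0.178) and 0.10 ± 0.21. Ikbke was called in WT when only CMP and GMP were fitted, at an adjusted p of 0.0012, where 13.5% of genes were, and in Tet2-/- when the CLP libraries were left out, at 0.0017, as was Trex1 in Tet2-/- at 0.0126, where 8.85% were.

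From CMP to MEP 1 of 9 was called in each genotype, Tmem173, against 6.46% of genes in WT and 3.62% in Tet2-/-. It fell by 4.48 on the log2 scale in WT (SE 0.36, adjusted p 9.34e-08) and by 4.28 in Tet2-/- (SE 0.40, adjusted p 5.72e-07). Tet2-/- libraries of Tmem173 were at 37.4, 35.9, 32.8 and 49.2 CPM in CMP and at 1.43, 2.43, 2.77 and 1.33 in MEP. Libraries did not overlap for 4 of 9 genes in WT, Tmem173, Cgas, Ikbke and Samhd1, against 26.9% of genes, and for Tmem173 and Cgas in Tet2-/-, against 21.2%. Tmem173 stayed called under each alternative tried in WT and in Tet2-/-. Cgas had -1.35 ± 0.62 in WT at an adjusted p of 0.211, called at 0.00234 when only CMP and MEP were fitted, as were 14.7% of genes, and -1.49 ± 0.47 in Tet2-/- at 0.0836, called there under 5 alternatives, among them at 0.0311 without the CLP libraries, where 8.02% of genes were. Ikbke had -1.91 ± 0.82 in WT at 0.176. Irf3, Tbk1, Ddx41 and Rnaseh2b differed by at most 0.34 in size at this step.

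**Figure D3:**
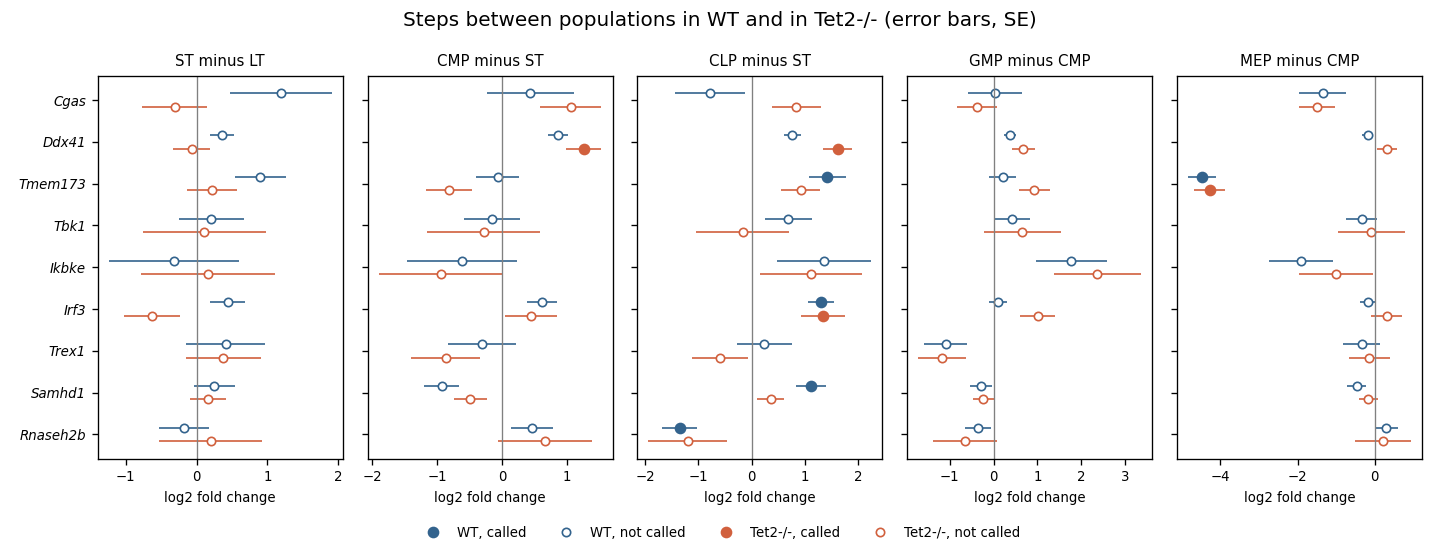
Log2 fold change (horizontal axis, with SE bars) of each gene at 5 steps between populations, WT in blue and Tet2-/- in orange, filled where called. Tmem173 from CMP to MEP is the largest change in both genotypes, -4.48 and -4.28, and the 4 filled WT points at the CLP step are Tmem173, Irf3, Samhd1 and Rnaseh2b.

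The loss of Tet2 was then examined within each population, the comparison that asks whether the pathway's own genes move. None of the 9 was called in any of the 6 by edgeR fitted within each population, where 0.0245% of genes were called in LT-HSC, 0.0185% in ST-HSC, 4.57% in CMP, 4.38% in GMP, 4.36% in MEP and 0.00766% in CLP. At an unadjusted p under 0.05 the counts of members were 1, 1, 3, 1, 1 and 1, against 5.16%, 6.13%, 19.1%, 17.3%, 16.4% and 3.65% of genes, and DESeq2 called 1, Samhd1 in CLP, where it called 2.67% of genes. The median log2 difference of the 9 was 0.18 in LT-HSC, 0.04 in ST-HSC, -0.28 in CMP, 0.10 in GMP, 0.13 in MEP and -0.30 in CLP, and that of all genes lay between 0.03 and 0.07. A test of whether the genotype effect differs among populations passed for 2.65% of genes and for 0 of the 9, with 1 at an unadjusted p under 0.05, against 14.0% of genes, Samhd1, at an adjusted p of 0.0912.

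Cgas in GMP had the lowest adjusted p of the 9 genes in these fits within populations. The Tet2-/- libraries held 13.1, 8.76, 13.3 and 10.8 CPM against 19.1, 19.0, 20 and 14.1 in WT. All 4 were below all WT libraries, while groups without overlap were found for 13.3% of genes in GMP. The log2 difference was -0.69 ± 0.20 with an adjusted p of 0.0782 and an exact two-sided permutation p of 0.0286, the smallest that 4 against 4 libraries allow. With DESeq2 the adjusted p was 0.0085, the lowest of 15 alternatives, while the highest lay far above 0.0782. The difference ran from -0.80 to -0.61 over them, so that the change stayed under 2-fold and 0 alternatives called it. Cgas differed by -0.22 ± 0.16 in CMP, -0.41 ± 0.37 in MEP and -0.82 ± 0.52 in ST-HSC, and by 0.67 ± 0.91 in LT-HSC and 0.77 ± 0.92 in CLP, with adjusted p of at least 0.547 in these 5. With 1 library left out the value ran from 0.11 to 1.07 in LT-HSC, from 0.44 to 1.07 in CLP, from -0.83 to -0.22 in MEP and from -1.29 to -0.59 in ST-HSC.

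Samhd1 in CLP had the largest difference of the 9 in size, -1.11 ± 0.31. Tet2-/- libraries were at 73.0, 77.3, 81.0 and 91.3 CPM against 114, 235, 220 and 125 in WT. The genotypes did not overlap, as for 3.87% of genes in CLP. The adjusted p was 0.896 with edgeR in the CLP libraries alone, 0.0427 with DESeq2 and 0.004 when all 46 libraries were fitted together, which called 6.61% of genes, and the exact two-sided permutation p was 0.0286. Without scaling factors the median of all genes in this comparison moved from 0.07 to 0.61, and Samhd1 was at -0.51 there. In the order given, the share of antibody transcripts was 0.0721%, 7.6%, 21.2% and 24.3% in the Tet2-/- libraries and 17.3%, 29.9%, 31.7% and 29.4% in WT. The part of these transcripts in the difference was not tested.

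Ddx41 in ST-HSC was the third gene without overlap. Its Tet2-/- libraries were at 26.0, 25.1, 22.4 and 43.3 CPM and the WT ones at 46.2, 50.3 and 43.5. The highest Tet2-/- library lay just under the lowest WT library, with a log2 difference of -0.65 ± 0.28 and an adjusted p of 0.799. Groups without overlap made up 8.14% of genes in ST-HSC.

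Tmem173 in Tet2-/- LT-HSC was at 60.7, 88.1, 36.8 and 50.1 CPM against 24.3, 31.8 and 40.2 in WT, a log2 difference of 0.90 ± 0.34 with an adjusted p of 0.848. One Tet2-/- library lay inside the WT range and 3 above it. In CMP the difference was -0.54 ± 0.22 (adjusted p 0.221), in GMP 0.12 ± 0.19, in MEP -0.39 ± 0.42, in ST-HSC 0.23 ± 0.42 and in CLP -0.30 ± 0.37. In CMP the 5 MEP markers summed to 2680 to 5520 CPM in Tet2-/- (median 3490) against 471 to 1510 (1090) in WT. Most of that sum is Car1, with means of 3580 and 871 CPM, while the mean of Klf1 was lower in Tet2-/-, 16.8 against 47.3. Tmem173 and Ikbke had the lowest WT levels of the 9 per kb in MEP, and Ikbke in CMP differed by -0.31 ± 0.47, from -0.63 to -0.01 with 1 library left out. The part of the MEP markers in the CMP differences of Tmem173 and of the other genes was not tested. The ST-HSC value was -0.27 without Tet2-/- replicate 5, which held 129 CPM against 45.1 to 50.4 in the other 3.

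Downstream, Irf3 in CMP was at 20.6, 37.2, 22.8 and 23.2 CPM in Tet2-/- against 34.6, 37.8, 37.1 and 47.8 in WT. Here 3 of 4 Tet2-/- libraries were below the WT range, and the difference was -0.61 ± 0.22 with an adjusted p of 0.15. In LT-HSC Irf3 lay the other way, at 36.9, 42.3, 23.2 and 16 CPM in Tet2-/- against 18.7, 18.7 and 20.1 in WT, with 3 of 4 Tet2-/- libraries above the WT range, 0.65 ± 0.38 at 0.998. Its other differences were -0.41 ± 0.46 in ST-HSC, 0.23 ± 0.13 in GMP, -0.18 ± 0.19 in MEP and -0.39 ± 0.45 in CLP. With 1 library left out Irf3 ran from 0.43 to 0.85 in LT-HSC and from -0.82 to -0.15 in ST-HSC. It ran from -0.34 to -0.09 in MEP and from -0.82 to -0.21 in CLP. Tbk1 differed by at most 0.18 in size in the 5 populations other than CLP, with adjusted p of at least 0.797. Ikbke and Tbk1 in Tet2-/- CLP replicate 2 were at 0, and the SE of their CLP differences was 1.42 and 1.5. Of the clearing genes Rnaseh2b had 0.48 ± 0.21 in CMP, at 0.246, and 0.33 ± 0.13 in MEP, at 0.249, and Trex1 and Samhd1 outside CLP stayed within 0.51 in size.

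**Figure D4:**
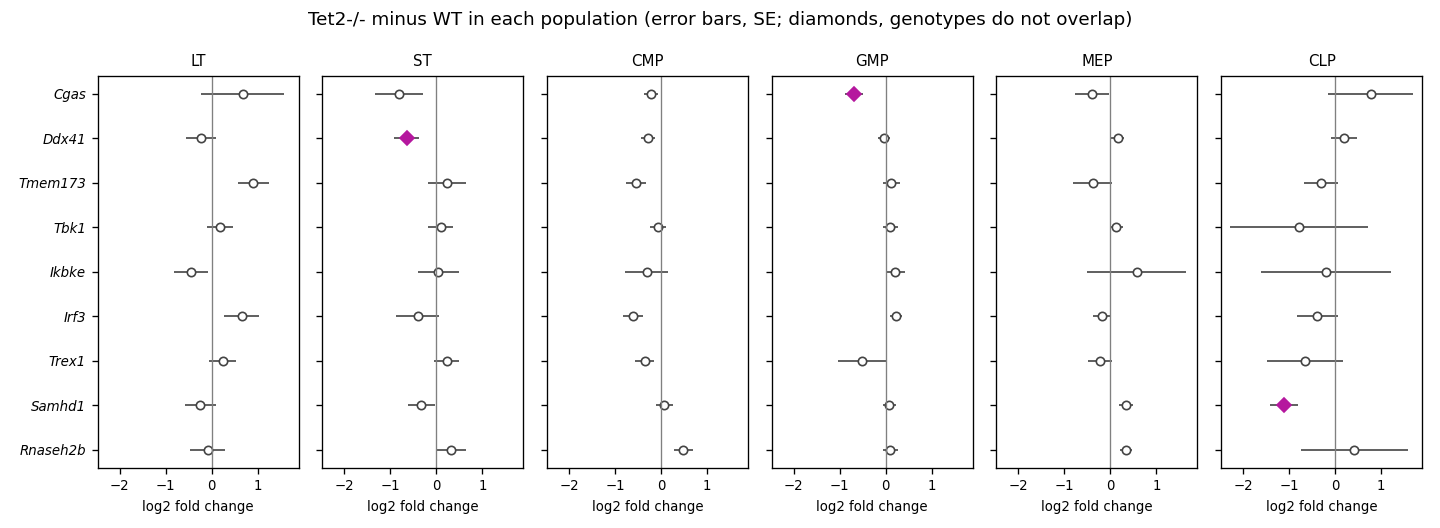
Log2 difference Tet2-/- minus WT (horizontal axis, with SE bars) of the 9 genes in each population. Diamonds mark the 3 cases whose libraries do not overlap between genotypes, Cgas in GMP at -0.69, Ddx41 in ST-HSC at -0.65 and Samhd1 in CLP at -1.11. No gene was called by edgeR fitted within each population, while DESeq2 and the fit of all 46 libraries called Samhd1 in CLP.

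Another 80 genes of DNA sensing in 6 lists were read beside the 9. In CMP 7 of the 77 tested were called lower in Tet2-/- and 0 higher, in GMP 6 of 78 lower and in MEP 6 of 76 lower, where 3.92%, 4.07% and 4.21% of all genes were called lower. Calls in either direction made up 4.57%, 4.38% and 4.36% of all genes, so that most calls over all genes were lower too. None of the lists' genes was called in LT-HSC, ST-HSC or CLP. The share of mitochondrial counts was 7.85% to 8.37% in Tet2-/- CMP against 5.94% to 6.57% in WT, 4.74% to 5.09% against 3.64% to 4.6% in GMP and 8.96% to 9.74% against 6.85% to 9.18% in MEP, where the ranges overlap. In ST-HSC it was 10.01% to 13.1% against 8.73% to 9.02%, in LT-HSC 8.82% to 14.5% against 8.02% to 9.5%, with 3 of 4 Tet2-/- libraries above all WT ones, and in CLP 3.11% to 12.5% against 2.41% to 4.58%. Its part in the differences of the 9 genes was not tested either. Of 12 marker lists, the summed levels of 5 did not overlap between genotypes in CMP, the MEP genes among them, 4 in GMP and 1 in MEP. The 8 plasma cell genes were lower in all 3, at 10 to 36.9 CPM in Tet2-/- CMP against 65.5 to 115 in WT, 22.3 to 41.1 against 122 to 157 in GMP and 3.89 to 41.9 against 61.2 to 117 in MEP. Of that list Xbp1 had a mean of 18.8 CPM in Tet2-/- GMP and 125 in WT, and Mzb1, Prdm1 and Irf4 had means under 1 CPM in these groups. The part of these values in the calls was not tested. The medians of the lists' genes together, -0.02, 0.09 and 0.07, were near those of all genes, 0.03, 0.03 and 0.05. None of the other DNA sensors or clearing genes was called, and the lists of STING regulators and TBK1 adaptors, 37 of the 80 genes, held the 6 calls in GMP, the 6 in MEP and 5 of the 7 in CMP. Whether calls concentrate in them was not tested.

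Tmed2, a cargo receptor of the early secretory pathway that binds STING, had the largest of these differences in GMP. It was at 446 ± 13.5 CPM in WT CMP against 73.5 ± 22.6 in Tet2-/- (n = 4 each), 798 ± 211 against 103 ± 7.5 in GMP and 437 ± 25.1 against 65.6 ± 28.1 in MEP, and it fell by 2.62, 2.98 and 2.74 on the log2 scale. In LT-HSC and ST-HSC both genotypes were between 50 and 67.0 CPM. Optn, the autophagy receptor optineurin that TBK1 phosphorylates, and Sike1, an inhibitor of TBK1 and IKK-epsilon, were called lower in all 3 populations. Optn was at 70.2 ± 17.7 CPM in WT MEP against 34.0 ± 4.55 in Tet2-/-, and Sike1 at 36.2 ± 6.01 in WT CMP against 15 ± 3.53.

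Sqstm1, the autophagy adaptor p62, fell by 1.80 in CMP and by 1.41 in MEP, and Tmem203, a partner of STING, by 1.84 and 3.26. Azi2, a TBK1 adaptor, fell by 1.77 in GMP and by 1.81 in MEP. Zdhhc1 and Insig1, regulators of STING, were called in GMP, where they fell by 1.71 and 1.80. In CMP the cytokine gene Tnf fell by 1.99, from 44.6 ± 12.3 to 11.4 ± 4.21 CPM. Relb, an NF-kB subunit, fell by 3.75 from a low 4.53 ± 2.79 CPM. Whether a gene called in one of these populations differs from the others in its effect was not tested for these genes.

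At the WT steps the same lists gave 0 calls from LT-HSC to ST-HSC and 3 higher calls from ST-HSC to CMP, where 3.77% of all genes were called higher. These were Tmed2, 3.02 ± 0.28, Rnaseh2c, another RNase H2 subunit, 2.43 ± 0.53, and Surf4, a cargo receptor that recycles STING, 1.16 ± 0.19. Tmed2 in Tet2-/- was 67.0 ± 16 CPM in ST-HSC and 73.5 ± 22.6 in CMP, whereas Rnaseh2c went from 5.85 ± 3.83 to 32.9 ± 4.61 there. From CMP to GMP Surf4 rose by 1.55 and Copa, a coatomer subunit that retrieves STING from the Golgi, by 1.32, and Xrcc5, the Ku80 gene, fell by 1.77, where 1.6% of all genes rose and 1.54% fell. Copa was at 85.9 ± 1.12 CPM in WT CMP and 211 ± 27.4 in GMP, and in Tet2-/- at 96.4 ± 8.11 and 245 ± 25.4.

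From CMP to MEP 5 genes of the lists fell and 1 rose in WT, where 5.52% and 0.935% of all genes did. Nlrc3, a negative regulator of STING, fell by 5.25 with an SE of 0.90, the transcription factor gene Irf5 by 4.91 with an SE of 0.60 and Tnf by 4.53 with an SE of 0.81. Xrcc5 rose by 1.15, from 34.8 ± 7.73 to 80.0 ± 7.07 CPM.

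In CLP against ST-HSC 16 of the 78 tested rose and 5 fell, against 10.2% and 14.3% of all genes. Their median was 0.57, and that of all genes -0.10. Nfkb2, another NF-kB subunit, rose by 3.36 ± 0.57 and Enpp1, which hydrolyses cGAMP, by 5.80 ± 1.45, from 1.91 ± 1.72 to 108 ± 71.7 CPM. Interferon-induced Ifit2 fell by 3.23, the RNA sensor gene Ifih1 by 2.87 and the helicase gene Dhx36 by 1.90. Il6 was called higher on libraries at 162, 71.9, 0.126 and 0 CPM, so that 2 of 4 CLP libraries carried it, and all ST-HSC libraries were at 0. These are the libraries with the antibody transcripts given above.

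The genes whose pattern was most like each member over the 46 libraries were found by Pearson's r of log2 CPM among 8862 genes, which is a description of libraries that share populations and depth. Tmem173 ran with Cnn2 and Tnfrsf13b at 0.95 and Lcp1 at 0.94, and these were 0.95, 0.96 and 0.95 without the 8 CLP libraries. Ddx41 ran with Cdc37, Babam1 and Farsa at 0.89, Irf3 with Cnot10 at 0.85, Samhd1 with Il2rg at 0.88 and Cd74 at 0.85, and Ikbke with Matk at 0.80. Trex1 had Smad7 at 0.77 and Cgas Trim16 at 0.64, the weakest of the 9.

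The likeness of Tbk1 rested on CLP. Its nearest genes, Phf20, Gle1 and Ercc3, were at 0.96, 0.95 and 0.94 over all libraries and at 0.36, 0.42 and 0.04 without CLP, where Tbk1 was at 0 in 1 library. Rnaseh2b was at 0.97 with both Wdr12 and Gmnn, the geminin gene, and at 0.75 and 0.90 without CLP. Between members, Irf3 and Ddx41 had 0.67, and 0.75 without CLP, and Tbk1 and Ikbke had 0.64 and 0.53. Tbk1 and Rnaseh2b went from 0.77 to -0.49 without CLP. Samhd1 and Rnaseh2b were opposed, at -0.49 and -0.57.

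In the second table of LT-HSC, where Cgas is listed under its older symbol Mb21d1, single genes were much less even. Its libraries had 9380 to 11526 genes with a count, of 35972 listed, against 13754 to 20964 of 55421 in the first table. The part of this lower detection in the libraries at 0 was not tested. Tmem173 had 1788, 1168 and 0 counts in the libraries labelled WT, 6333, 0 and 3835 where the label is Sting-/-, and 0, 14 and 1128 for the double knockout label. The labels and the counts of the targeted gene thus go against each other in both directions, though whole-gene counts need not show a partial deletion. Ikbke ran from 0 to 2918 counts and Cgas from 0 to 1628, with 1 or more libraries near 0 in the groups labelled WT and Sting-/-. Samhd1 was at 184, 199 and 285 CPM in the libraries labelled WT, 60.3, 170 and 126 where the label is Sting-/-, and 166, 112 and 90.5 for the double knockout label.

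Of the 9 genes 0 were called between the groups labelled Sting-/- and WT, where 0.00916% of 10918 genes were called, 0 between double knockout and WT, against 1.13%, and 0 between double knockout and Sting-/-, against 0.687%, each with 0 at an unadjusted p under 0.05, against 5.05%, 14.6% and 11.3% of genes. Samhd1 in the libraries labelled WT was above all others, with log2 differences of -0.91 ± 0.49 and -0.86 ± 0.48 and adjusted p of 0.983 and 0.47. These groups share the libraries labelled WT. Irf3 was at 38.6, 39.8 and 53.0 CPM in those labelled WT and at 98.3, 67.4 and 87.4 in those labelled Sting-/-, a difference of 0.95 ± 0.76. Groups without overlap made up 12.7% of genes for Sting-/- against WT, 23.1% for double knockout against WT and 16.9% for double knockout against Sting-/-, and 3, 1 and 1 of the 9 were among them. DESeq2 also called 0 of the 9 in these comparisons, where it called 4.26%, 12.7% and 10.8% of 10631 genes in the order given.

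**Figure D5:**
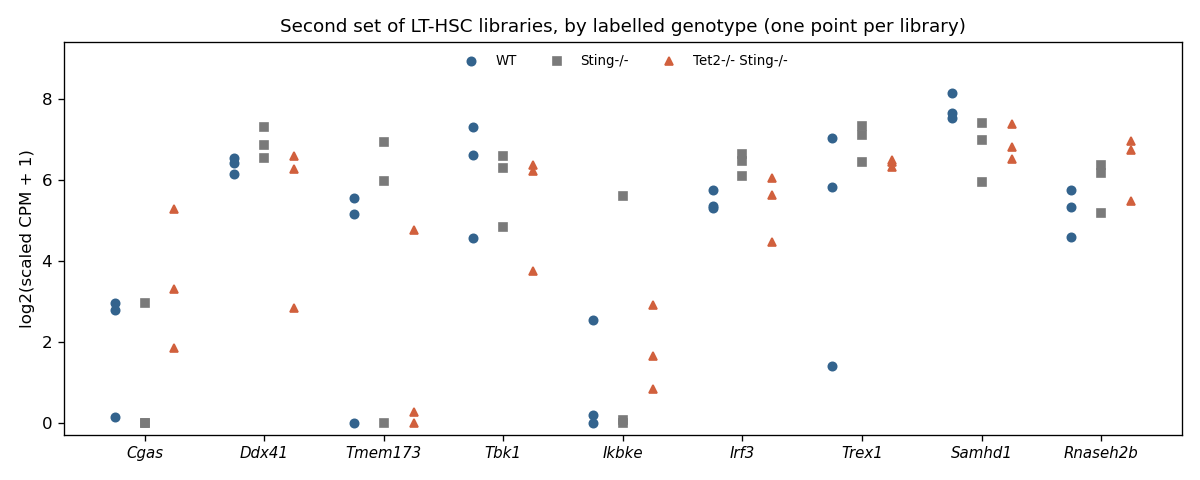
Level of the 9 genes as log2(scaled CPM + 1) (vertical axis) in the 9 LT-HSC libraries of the second table, with 1 point per library and the labelled genotype by symbol. Tmem173, Cgas and Ikbke have libraries at or near 0 in several groups, while Samhd1 and Irf3 are detected in all 9.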

How the data were processed

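Bulk full-length (SMART-seq) libraries were sequenced from sorted marrow cells. The authors trimmed reads with Trim Galore (0.6.7 in the submitters' notes), aligned them to mm10 with Hisat2 and deposited raw read counts per gene; the counting program is not given in the sources used here. Genes were placed with GENCODE vM21. The quasi-likelihood test of edgeR (4.0.16, under R 4.3.3) was run on genes kept by filterByExpr, with TMM factors and Benjamini-Hochberg adjustment over all of them. The genotypes were compared within each population, the populations within each genotype, and the second table in one fit of 3 groups. Every adjusted p in the text is from edgeR unless DESeq2 (1.42.0) is named. SEs come from the fold change and its test statistic. Exact permutation tests used log2 CPM with a prior count of 2. The script was tested on simulated data. The 9 genes, the other gene lists and the tests were chosen with earlier results of these data known. Other genes named are called genes of the pathway lists and, for likeness, the closest by Pearson's r among genes with a mean of at least 10 CPM. Alternatives were RLE scaling, library totals, other filters on low counts, DESeq2, other samples in a fit, a replicate block and each replicate left out. The tables were scaled apart, so levels are not set across them. No library pair of the first table held identical values (0 pairs).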

Additional observations from a re-analysis of the deposited data

Results flagged for a closer look

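Of 90 combinations of gene and group with 4 libraries, 8 had 1 library far from the other 3, and chance alone gives about 1 in 20. In Tet2-/- CLP replicate 2, Tbk1 was at 0 CPM (30.2 to 92.7 in the other 3), Ikbke at 0 (35.9 to 68.5) and Rnaseh2b at 0.17 (28.3 to 73.9). This library also had the highest share of otherwise high genes with at most 3 counts, 1.3%, and its part in these values was not tested. Trex1 in Tet2-/- CLP replicate 3 was at 2.59 CPM, with 39.3 to 68.1 in the others.

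Tmem173 in Tet2-/- ST-HSC replicate 5 was at 129 CPM, above 45.1 to 50.4. In WT GMP, Cgas was at 14.1 CPM in replicate 5, below 19.0 to 20, and Tbk1 at 61.9 in replicate 3, above 48.6 to 49.5. Ikbke in WT MEP replicate 3 was at 0 CPM, below 3.13 to 5.19. The WT GMP library low in Cgas was still above every Tet2-/- GMP library.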

How the results depend on the processing

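Of the differences of single genes among the 9, in the genotype comparisons, the steps in both genotypes and the second table, 2156 kept direction and side of the threshold over the alternatives, 67 changed sign, 19 became a call and 16 lost it. Counts of the 9 called stayed within 1.5 times in 251 cases and moved in 22. The cause was not tested where none is shown. In the CLP genotype comparison DESeq2 and the fit of all 46 libraries called 1, against 2.67% and 6.61% of genes, where edgeR in the CLP libraries alone called none. Between ST-HSC and CLP in WT 4 became 1 with library totals and 2 with only these populations fitted, against 33.4% and 14.9% of genes. The count ran from 2 to 5 with each replicate left out, against 17.3% to 23.4% of genes. Fitting only the populations compared gave 1 call from CMP to GMP and 2 from CMP to MEP in WT, against 13.5% and 14.7% of genes. In Tet2-/-, the CLP step had 1 call with library totals, with only these populations and with the replicate block, and 1 to 3 with each replicate left out (1 without replicate 3 or 4). Of all genes 21.3% were called at that step with library totals, 18.7% without replicate 2 and 15.3% without replicate 5. The CMP to GMP step in Tet2-/- had 2 without the CLP libraries (8.85% of genes) and with only these populations (16.6%). With a replicate left out it had 0 to 1 (1 without replicate 2, against 2.51%). The CMP to MEP step had 2 with library totals (3.97%), without CLP (8.02%), with DESeq2 (9.98%), with only these populations (9.96%) and with the replicate block (3.3%). The ST-HSC to CMP step had 0 to 1, with the shares without replicate 3 or 4 given above.

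Library totals and the removal of CLP were chosen after seeing the data. With library totals the genotype difference became -0.03 for Ikbke in ST-HSC and, in CLP, 0.17 for Tmem173, 0.28 for Ikbke and 0.10 for Irf3, and the WT CLP step became -0.24 for Tbk1, -0.04 for Ddx41 and -0.53 for Trex1. Cgas from CMP to GMP was -0.02 there and -0.01 with genes of at least 1 CPM. With each replicate left out, small genotype differences crossed 0: in LT-HSC Tbk1 ran from -0.05 to 0.43, Samhd1 from -0.41 to 0.09 and Rnaseh2b from -0.46 to 0.10. In ST-HSC Tmem173 ran from -0.27 to 0.40, Tbk1 from -0.04 to 0.24 and Ikbke from -0.31 to 0.40. In CMP Tbk1 ran from -0.15 to 0.05 and Samhd1 from -0.03 to 0.22, in GMP Tmem173 from -0.02 to 0.25, Tbk1 from -0.02 to 0.18, Ddx41 from -0.13 to 0.05 and Samhd1 from -0.04 to 0.16, and in CLP Ikbke from -0.76 to 0.21 and Rnaseh2b from -0.11 to 0.84. At the WT steps Tbk1 ran from -0.14 to 0.43 (ST-HSC minus LT-HSC), Tmem173 from -0.15 to 0.09 and Trex1 from -0.43 to 0.02 (CMP minus ST-HSC), Trex1 from -0.16 to 0.47 (CLP minus ST-HSC), and Cgas from -0.03 to 0.04 and Tmem173 from -0.08 to 0.44 (GMP minus CMP). In Tet2-/-, Cgas ran from -0.77 to 0.15, Tmem173 from -0.39 to 0.61, Tbk1 from -0.07 to 0.18, Ikbke from -0.14 to 0.34 and Ddx41 from -0.56 to 0.22 (ST-HSC minus LT-HSC), Irf3 from -0.01 to 0.93 (CMP minus ST-HSC), and Tbk1 from -1.14 to 0.28 (CLP minus ST-HSC) and from -0.16 to 0.04 (MEP minus CMP). In the second table, Sting-/- minus WT ran from -0.92 to 0.15 for Tbk1 and from -5.93 to 7.79 for Ikbke, double knockout minus WT from -0.15 to 5.46 for Ikbke, -0.33 to 0.36 for Irf3, -0.97 to 0.06 for Ddx41 and -0.13 to 1.58 for Trex1, and double knockout minus Sting-/- from -0.66 to 0.19 for Tbk1, -3.46 to 6.88 for Ikbke and -0.27 to 0.36 for Samhd1. Irf3 in double knockout minus WT was -0.06 with RLE scaling and DESeq2 and -0.05 with only these groups.

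The labels do not say that equal replicate numbers share a mouse, and deviations of same-numbered libraries correlated at -0.022 to 0.106 (1 of 60 Tet2-/- pairs over 0.1). Between populations the median was 0.028 in Tet2-/- and 0.022 in WT, against -0.01 and -0.007 for libraries of different number. The numbers were not taken as pairs in the main tests, and these small values do not settle whether they share a mouse. The replicate block gave 0 calls in each genotype comparison, against at most 3.52% of genes. It gave 4 at the WT CLP step (21.3% of genes), 1 from CMP to MEP in WT (5.91%) and 6 in the test among WT populations (38.1%). The block turned Rnaseh2b in CLP to -0.33 and, in the second table, Tmem173 (Sting-/- minus WT) to -1.12, Irf3 (double knockout minus WT) to -0.01 and Ikbke (double knockout minus Sting-/-) to 1.70. Counts over all genes moved by over 1.5 times in 94 cases. DESeq2 called 230, 324, 1235, 1046 and 442 genes between genotypes in LT-HSC, ST-HSC, CMP, MEP and CLP, where edgeR called 4, 3, 734, 651 and 1, and the fit of all 46 libraries called 20, 21, 285, 423 and 1477, with 219 in GMP against 725. The WT steps to ST-HSC, CMP, GMP and MEP had 246, 2250, 1696 and 2437 calls without CLP against 35, 1001, 630 and 1292.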
